A study of Mus musculus with 8 samples.

Results

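Peaks of the RNA demethylase ALKBH5 over Tet1 and Tet2 are described here in mouse embryonic stem cells with and without the C-terminal disordered region of the enzyme. The members are all peaks that overlap, by at least 1 bp, chromosome 10 from 62640000 to 62745000 (the Tet1 locus, 105 kb) or chromosome 3 from 133169000 to 133251000 (the Tet2 locus, 82 kb), in GRCm39. They number 83 of the 72953 peaks in 4 lists, with 47 at Tet1 and 36 at Tet2. Both loci were chosen by the peaks themselves, because regions listed only for full-length ALKBH5 ranked high there. Peak numbers, widths and ranks are therefore given as a description with no test, and they support no statement about the genotypes beyond these loci.

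ALKBH5 removes the N6-methyladenosine mark from RNA. Its RNA contacts were profiled by eCLIP, in which UV light (254 nm, 400 mJ/cm2) fixes a protein to RNA in contact with it so that both can be pulled down together, and nuclei were isolated before the libraries were made. In del-cIDR cells the C-terminal intrinsically disordered region has been deleted from the endogenous protein. The other cells are wild type with full-length ALKBH5. Both are E14TG2a, an embryonic stem cell line, grown in serum medium with LIF at 1000 U/ml and the inhibitors PD0325901 (1 µM) and CHIR99021 (3 µM). Each genotype had an immunoprecipitate and an input in 2 replicates, 8 samples in all. Each of the 4 immunoprecipitates had its own peak list, and these lists are the data used. The labels do not say whether replicates were separate cultures or whether the del-cIDR cells are 1 clone. The del-cIDR lists held 17584 and 18841 peaks and the full-length lists 19892 and 16636. Read depth is unknown, and the inputs were not analysed here. Less binding to an RNA and less of that RNA in the nuclei thus cannot be told apart in these lists, and neither can fewer reads. The cell type was not checked against marker genes, since no annotation of GRCm39 was used.

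TET enzymes are dioxygenases that oxidise methylated cytosine in DNA to hydroxymethylcytosine and further oxidised bases, which starts active DNA demethylation. Embryonic stem cells express Tet1 and Tet2, and these give most of their hydroxymethylcytosine, whereas Tet3 is best known from the oocyte and the zygote. TET1 carries a CXXC zinc finger that binds unmethylated CpG. TET2 has none of its own, and the CXXC domain lost from it is encoded by Cxxc4, a neighbouring gene. In RefSeq (GRCm38.p6) both genes lie on the minus strand, so transcription runs towards lower coordinates and the lower end of each locus is the side where transcripts end. The nearest coding genes on either side are Ccar1 and Slc25a16 for Tet1, and Ppa2 and Cxxc4 for Tet2. RefSeq gives Tet1 a span of 82.9 kb and Tet2 one of 81.5 kb. The Tet1 locus used here is longer than that span, so its upper part may reach past the RefSeq gene. Exons and introns were not placed on GRCm39, and positions below are coordinates or distances from the lower end of the locus.

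At Tet1 the del-cIDR lists held few peaks and the full-length lists many. Tet1 had 1 and 3 peaks in del-cIDR replicates 1 and 2, against 18 and 25 in full-length replicates 1 and 2. The genotypes did not overlap, with full-length higher. The same was so in 27.4% of 100 kb windows of the genome with at least 4 summits over the lists. Among windows with at least 10 summits the share was 39.95%. The means were 2.00 ± 1.41 peaks in del-cIDR and 21.5 ± 4.95 in full-length cells (SD, n = 2 each), a difference (del-cIDR minus full-length) of -19.5 peaks. Peaks covered 0.386 and 1.35 kb of the locus in del-cIDR, against 19.5 and 15.6 kb in full-length lists, an order that held in 32.9% of such windows. As a mean share of the locus, del-cIDR peaks covered 0.825% ± 0.646 and full-length peaks 16.7% ± 2.62 (SD, n = 2 each).

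Tet2 showed the same direction, with a closer spread between replicates. It had 4 and 5 peaks in the del-cIDR lists, against 13 and 14 in the full-length lists. The means were 4.50 ± 0.707 in del-cIDR and 13.5 ± 0.707 in full-length cells (SD, n = 2 each), a difference of -9.00 peaks. The covered length was 1.53 and 2.07 kb in del-cIDR, against 12.1 and 11.3 kb in full-length lists, or 2.19% ± 0.464 and 14.3% ± 0.682 of the locus (SD, n = 2 each). The 2 genotypes again did not overlap in either measure. Such an order held in 27.4% of 100 kb windows for peak number and in 32.9% for covered bases.

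Across the genome such a separation was common in both directions. Of 5706 windows of 100 kb with at least 4 summits over the 4 lists, 30.5% had more peaks in both del-cIDR lists than in either full-length list, and 27.4% had the reverse. For covered bases the shares were 46.1% and 32.9%. Windows dense in peaks had the full-length order more often, as 39.95% of those with at least 10 summits had more peaks in both full-length lists. The del-cIDR order was not counted at that density. The loci spanned 4 such windows, and in each of them both full-length lists had more peaks and more covered bases, so direction alone does not set them apart. The differences stood towards the full-length side of the distribution. Windows with few peaks cannot differ by many, and the median over windows was 2 del-cIDR and 1.5 full-length peaks. The loci were also chosen by their full-length peaks. The shares of windows below therefore describe the size of each difference and do not measure how unusual the loci are. The lower Tet1 window, chromosome 10 from 62600001 to 62700000, had 2 and 5 peaks in del-cIDR lists, against 11 and 17 in full-length lists, and 2.80% of windows differed as much or more in that direction. By covered bases the same window differed by -11.4 kb (del-cIDR minus full-length), a value reached by 0.946% of windows. The lower Tet2 window, chromosome 3 from 133100001 to 133200000, had 4 and 5 del-cIDR peaks, against 9 and 10 full-length peaks (9.62% of windows as far or farther), and differed by -8.55 kb of covered bases (2.03% of windows). The upper windows were less extreme. That of Tet1, from 62700001 to 62800000, had 2 and 2 in del-cIDR lists, against 8 and 8 in full-length lists (7.26% of windows, and 8.13% by covered bases). That of Tet2, from 133200001 to 133300000, had none in del-cIDR against 4 and 4 in full-length lists (13.1% of windows, and 21.8% by covered bases).

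The excess of full-length peaks ended with the loci. In the 100 kb below the Tet1 locus the del-cIDR lists had 3 and 4 peaks and the full-length lists 2 and 1, and in the 100 kb above it the del-cIDR lists had 1 and 2 and the full-length lists 2 and 0. The full-length order was thus absent from both flanks. No list held a peak in the 100 kb on either side of the Tet2 locus. The nearest full-length peaks outside Tet1 lay 57.3 and 59.5 kb below and 49.8 and 106 kb above it, so the ends set for the locus passed through no peak. The first full-length peaks inside it began at 62640273 in replicate 1 and 62640411 in replicate 2. At Tet2 the first ones inside began at 133169265 and 133169334, and the last ended at 133250704 and 133250681.

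**Figure D1:**
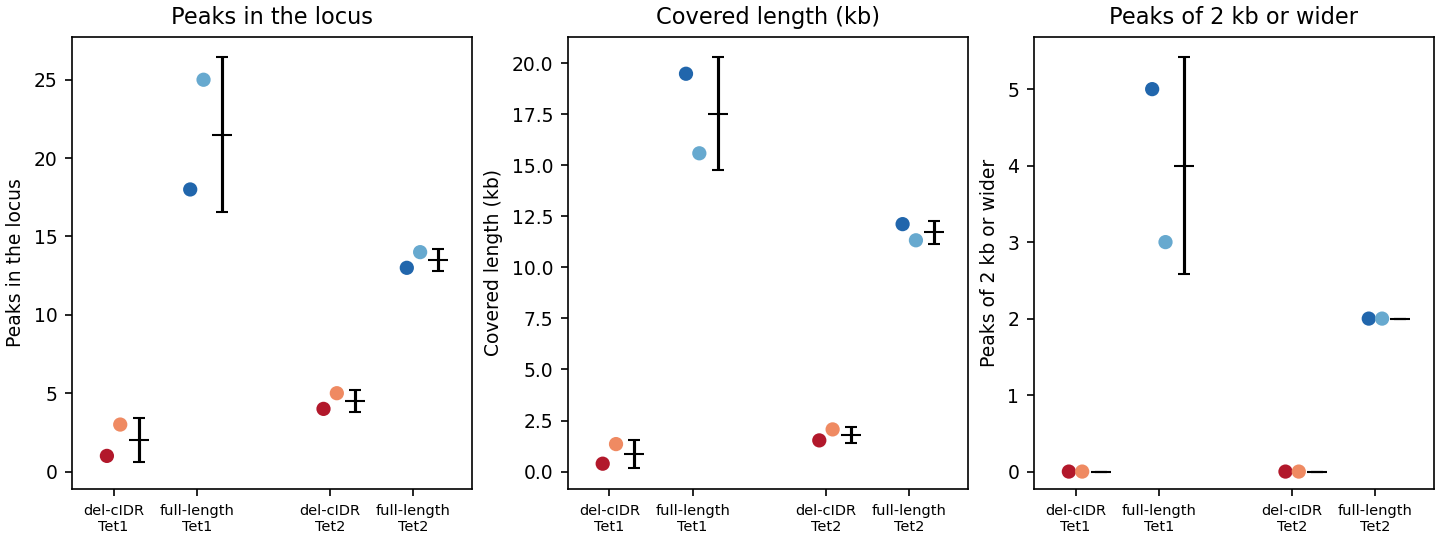
Number of peaks, covered length in kb and number of peaks of 2 kb or wider in the Tet1 and Tet2 loci, with a point for each list and, beside it, the mean and SD of the 2 replicates. Both del-cIDR lists lie below both full-length lists in all panels. That order held in 27.4% of 100 kb windows for peak number and in 32.9% for covered bases. It was not counted for wide peaks, which made up 0.0910 and 0.138% of the del-cIDR and 4.15 and 2.17% of the full-length lists. The full-length replicates had 18 and 25 peaks at Tet1.

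Most full-length regions of the loci were listed in both replicates. Of the full-length peaks, 93.5% in replicate 1 and 92.3% in replicate 2 overlapped a peak of the other replicate, beside 54.0 and 76.2% over the whole lists. Joining peaks that overlapped across the 4 lists gave 21 regions at Tet1 and 15 at Tet2. Of the Tet1 regions 17 held a peak in both full-length lists and 3 in 1 of them, and 14 of the 17 had none in either del-cIDR list. Of the Tet2 regions 12 held a peak in both full-length lists and 2 in 1 of them, and 8 of the 12 had no del-cIDR peak. A lack of del-cIDR peaks was common, since 71.8% of the 10507 regions of the genome with peaks in both full-length replicates had none. The higher peak number of replicate 2 at Tet1 arose within shared regions. The 3 lowest regions held 1 peak each in replicate 1 and 3 each in replicate 2, where the same stretches were listed in pieces. With peaks within 1 kb joined, the full-length lists had 10 and 11 Tet1 peaks, against 1 and 3 in del-cIDR. The Jaccard index of covered bases between the del-cIDR replicates was 0 at Tet1, where they shared no base, and 0.457 at Tet2, beside 0.404 over the genome. Between the full-length replicates it was 0.733 at Tet1 and 0.876 at Tet2, beside 0.461 over the genome. Wide peaks overlap more readily than narrow ones. The loci were also chosen because regions listed only for full-length ALKBH5 ranked high there. The overlap between full-length replicates is thus no separate support, and its excess over the genome does not measure reproducibility at these genes.

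**Figure D2:**
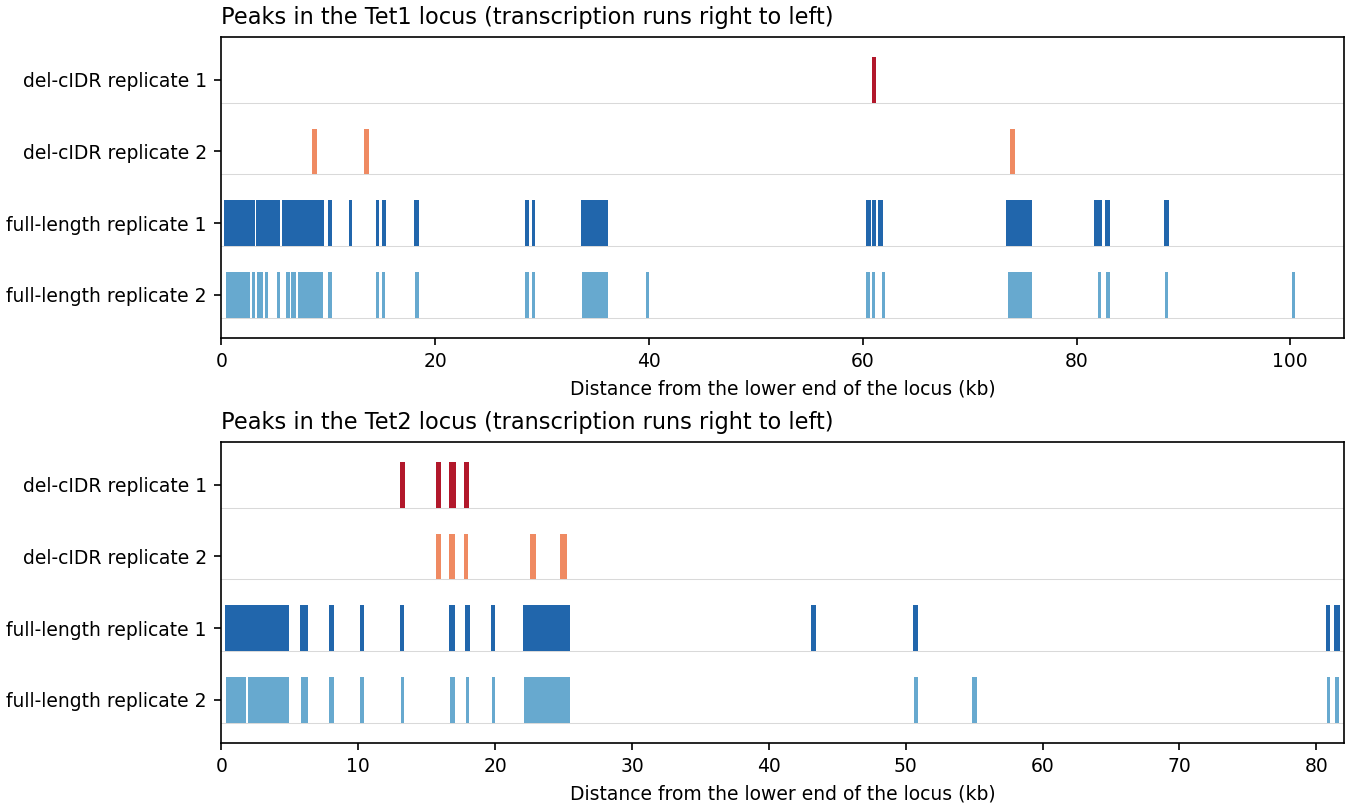
Every peak of the Tet1 locus (upper panel) and the Tet2 locus (lower panel) by list, drawn to scale as a bar over its distance in kb from the lower end of the locus, which is the side where transcripts end. The 9 del-cIDR peaks of Tet2 lie within 12.2 kb, and 17 Tet1 and 12 Tet2 regions hold a peak in both full-length lists.

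At Tet1 full-length peaks fell into groups that left long stretches empty. Of 21 bins of 5 kb, 10 held no summit in any list. Not all of these were empty, as wide full-length peaks with summits in a neighbouring bin reached into some. In replicates 1 and 2 they covered 1325 and 1266 bp from 30 to 35 kb, and 838 and 832 bp from 75 to 80 kb. The lowest bins were the densest, as the first 5 kb had no base covered in del-cIDR, against 4643 and 3283 bp in the full-length lists. The next 5 kb had 0 and 404 bp covered in del-cIDR, against 4433 and 3498 bp in full-length lists. The longest stretch with no full-length peak was 20.3 kb, from 62679998 to 62700294. Across the 21 bins each del-cIDR list correlated in summits with each full-length list at a Spearman value of 0.32 to 0.38, and the full-length replicates with each other at 0.90. The del-cIDR replicates correlated with each other at -0.09. They held summits in only 1 and 3 bins, too few to compare positions between the genotypes. Bins of a locus share transcripts and many hold no summit, so these are descriptions.

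The same 5 Tet1 regions ranked best in both full-length lists, and 1 of them held a del-cIDR peak. The best ranked region lay on chromosome 10 from 62673675 to 62676148, where neither del-cIDR list had a peak and the full-length peaks ranked 35 and 54 by −log10 q, with the authors' fold enrichment at 13.5 and 10.2. Its upper end was 62676148 in both full-length replicates. A short region from 62668391 to 62668752, with no del-cIDR peak, ranked 100 and 118 in the full-length lists with their highest fold enrichment in the locus, 16.0 and 12.0. Narrow peaks thus stood among the strongest as well as wide ones. The region from 62658045 to 62658498 ranked 260 and 439, and that from 62640273 to 62643179, next to the lower end of the locus, ranked 287 and 459 as the best of its peaks in each list. Neither held a del-cIDR peak. The region from 62728188 to 62728625, the next best of those with no del-cIDR peak, ranked 549 and 518 in the full-length lists. It began 88.2 kb from the lower end, farther than the 82.9 kb that RefSeq gives the whole gene, and which transcript it belongs to was not tested.

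The region of the 5 with a del-cIDR peak was that from 62713385 to 62715837, 2453 bp wide, which held the second best full-length peak of replicate 1. It ranked 3754 in del-cIDR replicate 2 and was not listed in del-cIDR replicate 1, against 72 and 133 in the full-length lists. The del-cIDR peak, from 62713785 to 62714284, covered 20.4% of the region. Its summit lay 45 and 54 bp from the summits of the 2 full-length peaks. The widest Tet1 region, from 62645709 to 62649581 (3873 bp), was alike. Del-cIDR replicate 2 had a peak there from 62648528 to 62648931 at rank 16939, with a fold enrichment of 1.43 and 10.4% of the region covered, against ranks 362 and 721 in the full-length lists. Its summit lay 28 and 12 bp from those of the full-length peaks. In both regions a narrow del-cIDR peak therefore sat on the highest point of a wide full-length peak. Over the genome, where a del-cIDR peak of either replicate overlapped a full-length peak of 2 kb or wider, the median distance between summits was 676 to 923 bp over the 4 pairs of lists, and 18.6 to 25.8% of summits lay within 100 bp.

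The other 2 del-cIDR peaks of Tet1 were a narrow shared site and a site of its own. The only Tet1 peak of del-cIDR replicate 1, from 62700846 to 62701231, had ends within 2 bp of the full-length replicate 1 peak from 62700848 to 62701230. It ranked 6058 in its list with 2.43-fold enrichment, against ranks 6087 and 15322 and 2.36-fold and 1.55-fold in the full-length lists. The site is among the weakest that the full-length lists hold in the locus. The peak of del-cIDR replicate 2 from 62653389 to 62653830 ranked 11457 and overlapped no other list. No Tet1 position was therefore found in both del-cIDR lists.

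**Figure D3:**
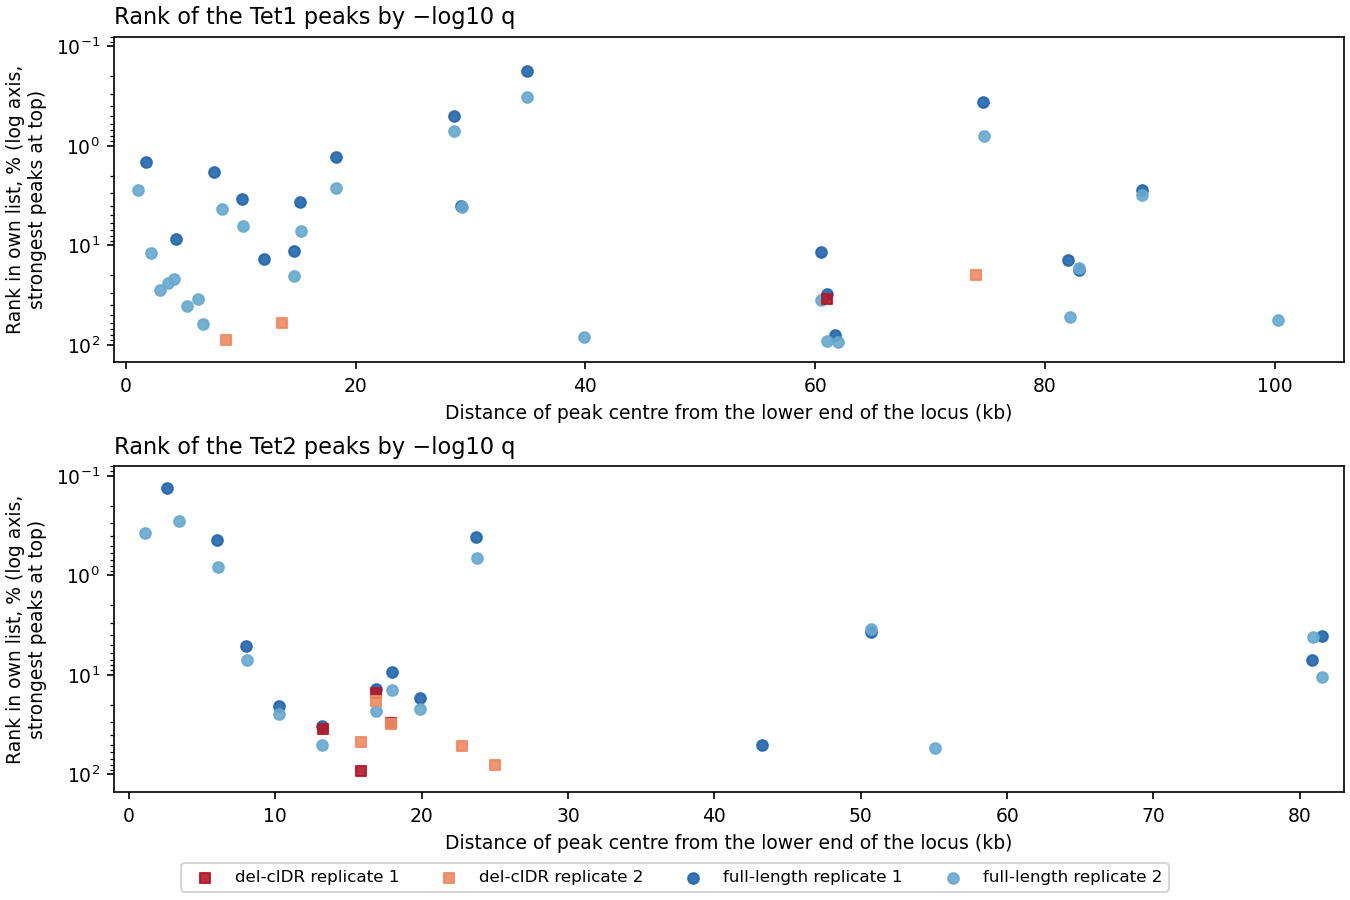
Rank of every Tet1 peak (upper panel) and Tet2 peak (lower panel) within its own list by −log10 q, as a percent of the list on a log axis with the strongest at the top, against the distance of the peak centre from the lower end of the locus in kb. Squares are del-cIDR and circles full-length lists. The best del-cIDR peak stands at 15.3%, while the full-length lists have peaks at 0.131 to 0.325% in both loci.

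At Tet2 the best ranked region in both full-length lists lay at the lower end of the locus, where the transcript ends, and no del-cIDR peak was found in that stretch. The region ranked after it lay farther in and held del-cIDR peaks, as given below with its ranks. The region from 133169265 to 133173928, 4664 bp wide, was 1 peak in full-length replicate 1 (rank 26, 17.7-fold) and was listed as 2 in replicate 2. Those 2 ranked 62 and 47, from 133169334 to 133170813 and from 133170917 to 133173923. The next region by position, from 133174756 to 133175324, ranked 87 and 136 with 15.0-fold and 8.66-fold enrichment. Weaker regions followed, from 133176838 to 133177205 (ranks 1027 and 1175) and from 133179095 to 133179401 (ranks 4099 and 4120). Up to 133179401, then, neither del-cIDR list had a peak and both full-length lists had peaks at 4 regions.

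All del-cIDR peaks of Tet2 lay in a stretch of 12.2 kb, from 133182088 to 133194237, that full-length peaks also occupied. Both genotypes had peaks in both replicates at 2 regions. The first, from 133185642 to 133186109, ranked 2688 and 3448 in the del-cIDR lists, against 2777 and 3873 in the full-length lists. The del-cIDR lists gave it 2.67-fold and 2.43-fold enrichment, and the full-length lists 2.83-fold and 2.27-fold. The second, from 133186702 to 133187137, ranked 5402 and 5863 in the del-cIDR lists, against 1846 and 2369 in the full-length lists. These 2 regions were moderate in the full-length lists, where 7 or more of the 12 regions common to both replicates ranked better.

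Other sites of this stretch were listed in some of the lists. From 133182034 to 133182395 a peak was listed in del-cIDR replicate 1 at rank 6108, not in del-cIDR replicate 2, and in the full-length lists at ranks 6443 and 8351. In the wide region from 133191017 to 133194456 del-cIDR replicate 1 had no peak. Del-cIDR replicate 2 had 2 narrow ones inside it, from 133191577 to 133191961 (rank 9746) and from 133193715 to 133194237 (rank 15031). The full-length peaks ranked 82 and 110 with 11.5-fold and 8.52-fold enrichment. Unlike at Tet1, these summits stood 902 to 1192 bp from the full-length summits, on both sides of them, and the 2 peaks together covered 26.4% of the region. From 133188724 to 133189029 a peak was listed in neither del-cIDR list and in both full-length lists, at ranks 3379 and 3696. Over the genome, 69.3% of the 10981 regions with peaks in both del-cIDR replicates had no full-length peak. At Tet2, 1 of the 3 regions listed in both del-cIDR replicates, from 133184662 to 133185081, was listed in neither full-length one. It ranked 16125 in del-cIDR replicate 1 (91.7% down the list) and 8871 in replicate 2 (47.1%), with 1.55-fold and 1.98-fold enrichment. It lay in a gap between full-length peaks that ended at 133182341 or below and began at 133185656 or above.

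Beyond this stretch only full-length peaks were listed at Tet2. The region from 133219522 to 133219890 ranked 730 and 577 with 7.99-fold and 8.84-fold enrichment. Near the upper end, where transcription starts, 2 regions from 133249689 to 133250021 (ranks 1396 and 690) and from 133250271 to 133250704 (ranks 808 and 1747) held peaks in both full-length lists. Between these sites the full-length lists left 25.5 kb empty, from 133224222 to 133249688. The single-list regions were weaker, from 133212113 to 133212409 in full-length replicate 1 (rank 10039) and from 133223856 to 133224221 in replicate 2 (rank 8972).

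Peaks that del-cIDR did have at these genes mostly coincided with full-length peaks. Of the 5 del-cIDR replicate 1 peaks in the 2 loci, 4 overlapped a full-length peak, and of the 8 of replicate 2, 6 did. Over their whole lists 24.2% and 24.3% did so. Full-length peaks cover far more of these loci than of the genome, which raises any overlap, and this was not adjusted for. In the other direction 7 of 31 and 7 of 39 full-length peaks overlapped a del-cIDR peak, or 22.6% and 17.9%, beside 20.7% and 25.4% over the full-length lists. Of all 20 overlapping pairs of a del-cIDR and a full-length peak, 16 had summits within 100 bp of each other. The median distance was 38.5 bp, beside medians of 49 to 56 bp over such pairs in the genome for the 4 pairs of lists. A del-cIDR peak counts once for each full-length list it overlaps, so the 20 pairs are not separate sites. They fall in 3 regions of Tet1 and 4 of Tet2. The summits of overlapping peaks can lie no farther apart than both widths together, which keeps the distance short where both are narrow.

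The wide peaks of the 2 loci were all full-length peaks. Tet1 had 0 and 0 peaks of at least 2 kb in del-cIDR, against 5 and 3 in full-length lists. At Tet2 the del-cIDR lists had 0 and 0 and the full-length lists 2 and 2. Wide peaks were rare in general, at 0.0910 and 0.138% of the del-cIDR and 4.15 and 2.17% of the full-length lists. The widest Tet1 peaks were 3873, 2907 and 2474 bp in full-length replicate 1 and 2415, 2354 and 2233 bp in replicate 2. The widest Tet2 peaks were 4664, 3440 and 562 bp in replicate 1 and 3369, 3007 and 1480 bp in replicate 2. Wide peaks made up 71.7 and 44.9% of the summed peak width at Tet1 and 66.9 and 56.3% at Tet2. Median widths did not follow this, as Tet1 had medians of 386 and 442 bp in del-cIDR, against 450 and 308 bp in full-length lists. For Tet2 the del-cIDR lists gave 375.5 and 397 bp, and the full-length lists 368 and 334 bp. The medians of the whole lists themselves differed, at 325 and 331 bp in del-cIDR and 379 and 291 bp in full-length lists. The loci thus held a few very wide full-length peaks among many of ordinary width.

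**Figure D4:**
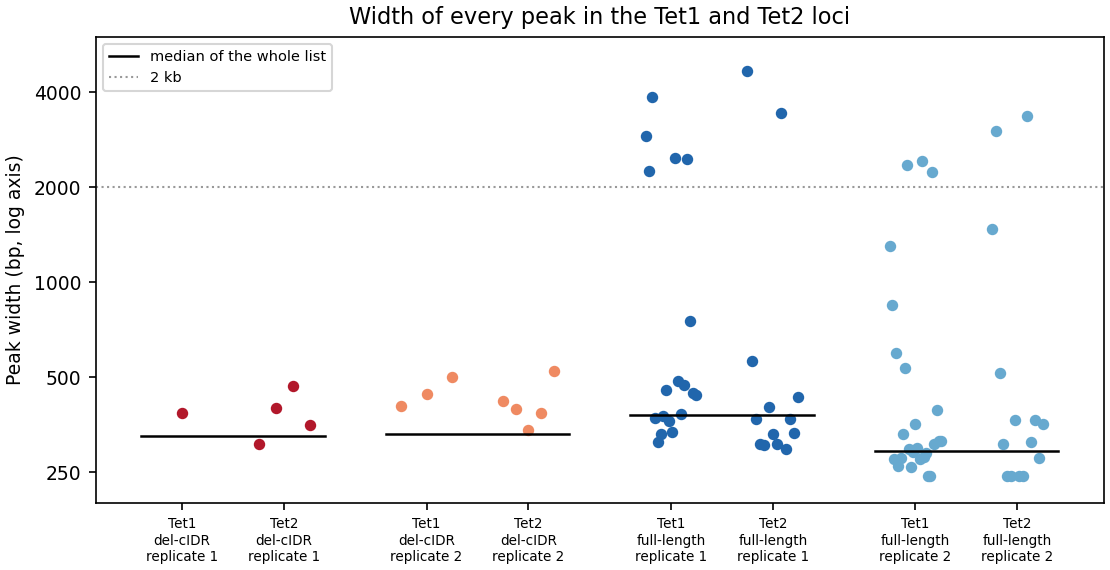
Width in bp, on a log axis, of every peak in the Tet1 and Tet2 loci by list, with a black line at the median width of the whole list and a dotted line at 2 kb. All del-cIDR peaks lie between 308 and 523 bp, and the full-length lists reach 3873 bp at Tet1 and 4664 bp at Tet2.

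Ranks within the lists showed the same order as the peak numbers. The loci were chosen because regions listed only for full-length ALKBH5 ranked high there, so this order is no separate support. At Tet1 the median rank stood at 34.5 and 60.8% of the list in del-cIDR, against 3.84 and 20.2% in full-length lists. At Tet2 it stood at 32.7 and 47.1% in del-cIDR, against 7.02 and 8.78% in full-length lists. No del-cIDR peak of either locus was among the best 10% of its list, while 11 and 10 Tet1 peaks and 8 and 7 Tet2 peaks were so in the full-length lists. All 13 del-cIDR peaks had fold enrichments under 4, from 1.43 to 2.67, beside list medians of 3.17 and 3.16. The full-length lists had 11 and 9 peaks of 4-fold or more at Tet1 and 6 and 8 at Tet2. Over the whole lists 31.6 and 30.4% of del-cIDR and 45.8 and 41.7% of full-length peaks reached 4-fold. The median full-length fold enrichment was 5.42 and 2.69 at Tet1 and 3.95 and 4.41 at Tet2, above the median of the whole list in each case but Tet1 in replicate 2, where it was below. Ranks come from lists of different lengths and describe each list by itself.

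The 2 genes differed from each other in their del-cIDR peaks as well as in the number of full-length peaks. Del-cIDR peaks stood at 4 regions of Tet1, none of them in both replicates, and at 5 regions of Tet2, 3 of them in both. The full-length replicates shared 17 regions at Tet1 and 12 at Tet2 and ordered them alike, with Spearman correlations of the ranks of 0.95 and 0.97 across these regions. The contrast between the genes in del-cIDR peaks rests on 4 and 9 such peaks and was not tested.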

How the data were processed

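The build GRCm39 and the tools cutadapt, UMI-tools, STAR and MACS2 are named in the submitters' processing notes. Their versions and settings, and the role of the inputs, are not given in the sources read. The authors deposited 1 peak list per immunoprecipitate, with a fold enrichment (a ratio over the peak caller's background), a −log10 p-value and a −log10 q-value per peak. The deposited score is 10 times the −log10 q-value cut to a whole number. The deposited summit column is a distance from the peak start. Peaks carry no strand. The smallest widths were 300.0 and 301 bp in the del-cIDR and 297 and 243 bp in the full-length lists. Lists with wt in their name were assigned to full-length cells, and lists with KI to del-cIDR cells, the remaining genotype.

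All peaks were used and ranked in their list by −log10 q. Regions join peaks of any list that overlap by 1 bp. Windows were counted by summit on the numbered, X and Y chromosomes. No test was run, because the members were chosen with earlier results of these data known, as were the rules for naming peaks. Named in each locus were every del-cIDR peak, the 5 best ranked and 3 widest peaks of each full-length list, every region of 3 or 4 lists and the 5 best regions of both full-length lists alone. Regions and peaks outside that rule were named after their values were seen. A planned list of 20 other DNA methylation genes was not analysed here, nor were sequences at the peaks, since both need GRCm39. Gene names, strand and neighbours are RefSeq's (GRCm38.p6), whose coordinates were not mixed with these. The counting was tested on simulated lists. Python 3.11.15, pandas 2.3.3 and scipy 1.17.1 were used.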

Additional observations from a re-analysis of the deposited data

How the results depend on the processing

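The direction held in each of the 20 alternatives for peak number and in each of the 20 for covered bases, and the separation of genotypes rests on lists of unknown depth. No paired analysis was possible because the values come from no test. With 1 replicate left out, the difference (del-cIDR minus full-length) ranged from -23.0 to -16.0 peaks and from -18.6 to -14.7 kb at Tet1, and from -9.50 to -8.50 peaks and from -10.3 to -9.53 kb at Tet2. Differences that moved by more than the replicate SD came with 2 settings. With peaks under 4-fold enrichment left out, where no del-cIDR peak is left in either locus, they were -10.0 peaks and -11.1 kb at Tet1 and -7.00 peaks at Tet2. With peaks within 1 kb joined, they were -8.50 peaks and -19.99 kb at Tet1, and -7.50 peaks and -10.7 kb at Tet2. Tet1 regions of both full-length lists alone numbered 9 with 4-fold enrichment and 5 with peaks within 1 kb joined into a region, against 14. The windows with more full-length peaks made up 29.6% at 50 kb, 25.5% at 200 kb, 18.3% with at least 1 summit, 39.95% with at least 10 summits and 28.7% with a −log10 q of at least 5, against 27.4%.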

Other observations

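The ends of matched full-length peaks differed between replicates on 1 side more than on the other. Over 25 one-to-one pairs of full-length peaks in the 2 loci, the lower end lay a median of 59 bp higher in replicate 2 than in replicate 1, and no pair had lower ends within 10 bp. The upper end lay a median of 9 bp lower, and 14 pairs had upper ends within 10 bp. The smallest peak width differs between these lists in the same sense (297 and 243 bp). Both genes are on the minus strand, so the upper end is the side where the transcript starts. At Tet2, the 3 one-to-one pairs of del-cIDR peaks had lower ends shifted by -9 to 24 bp and upper ends by -47 to 18 bp.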
